A study of Mus musculus with 4 samples.

Results

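A set of 9 genes for transcription factors that pattern the vertebrate limb were followed through the CTCF binding sites mapped in the calf muscle of the adult mouse. The members were given by symbol: Pitx1, Tbx4, Tbx5, Tbx2, Tbx3, Lmx1b, Meis1, Meis2 and Shox2. All 9 were found among the 21755 protein-coding genes of GENCODE M21 on chromosomes 1 to 19 and X (mm10, GRCm38). Each gene was given a window that ran from 100 kb before to 100 kb after its body, and the peak summits inside it were counted. These windows held 49 of the 42163 summits of the list called conservative, which asks for a peak in both pools of tissue. Neighbouring windows overlapped, so that 11 summits lay in the windows of 2 genes and the sum over windows was 60.

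CTCF binds DNA through its zinc fingers at a long, asymmetric motif. Together with the ring-shaped cohesin complex it holds the bases of many chromosome loops, most often where a pair of motifs point towards each other, and such loops help set which enhancers reach which gene. In the embryo, Tbx5 starts the forelimb bud, Pitx1 and Tbx4 act in the hindlimb bud, Lmx1b specifies the dorsal side, Tbx2 and Tbx3 act along the bud margins, Meis1 and Meis2 mark the segment next to the trunk, and Shox2 is needed for growth of the upper limb bones. Many of these genes are known to answer to enhancers far from their starts.

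Chromatin immunoprecipitation and sequencing (ChIP-seq) with an antibody to CTCF was carried out on gastrocnemius, the large muscle at the back of the hindlimb, from female B6CASTF1/J mice, an F1 hybrid strain, that were adult and 2 months old. There was 1 condition and no treatment. The 4 libraries were 2 technical replicates of pool E and 2 of pool F, and each pool held 2 tissue samples, so that single animals cannot be told apart. Peaks were deposited per pool and for both pools jointly, on the reference genome, with no separation of the alleles of the hybrid. The peak lists hold no expression, so the tissue label could not be checked against marker genes, and no list says whether any of these genes was transcribed. Muscle is a mixture of cell types, and a site used in few cells cannot be told apart from a weak site in all of them. Read depth was unknown. Peak strength is the authors' deposited score, with no stated scale, and is mainly used here to order the peaks of a list. Where the strengths of the pools are set side by side, they are the values the authors gave for each pool, and whether the pools share a scale is not known. Technical replicates were merged before deposit, so their spread cannot be seen, and the pools, labelled as biological replicates, give 1 value each. Every interval given below covers counting error alone.

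The sequences that carry the results are the motif matches under the summits. Each is from the reference genome (GRCm38, which is C57BL/6J and not the hybrid), read 5′ to 3′ on the strand that carries the motif, with the 14 bases of the match in capitals and 30 bases on each side (8 on each side in an untranslated region). The match was to the 14-base CTCF consensus motif, on either strand, with at most 2 mismatches and its centre within 50 bp of the summit. Of all conservative summits, 77.6% had such a match, and 40 of the 49 near the limb genes had one. A match describes the letters and was not tested as a bound site. The row of sites at Tbx2 and Tbx4 is shown because 5 of its summits lay within 10 kb of sequence:
9.15 kb before the Tbx2 start, chr11:85823353-85823426, minus strand: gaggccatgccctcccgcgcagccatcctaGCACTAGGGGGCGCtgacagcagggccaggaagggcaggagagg
248 bp after the Tbx2 end, chr11:85842153-85842226, minus strand: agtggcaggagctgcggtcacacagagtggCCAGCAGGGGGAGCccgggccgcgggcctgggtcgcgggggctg
10.9 kb after the Tbx2 start, chr11:85843375-85843448, plus strand: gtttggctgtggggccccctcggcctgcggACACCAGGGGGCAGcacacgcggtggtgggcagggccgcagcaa
12.3 kb after the Tbx2 start, chr11:85844776-85844849, plus strand: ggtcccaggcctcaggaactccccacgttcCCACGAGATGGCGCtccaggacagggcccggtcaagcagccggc
16.7 kb after the Tbx2 start, chr11:85849240-85849313, plus strand: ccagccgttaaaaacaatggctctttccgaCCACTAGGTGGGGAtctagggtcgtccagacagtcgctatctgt
18.4 kb after the Tbx2 start, chr11:85850885-85850958, plus strand: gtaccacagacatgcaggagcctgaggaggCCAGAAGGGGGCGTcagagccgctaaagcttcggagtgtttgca
32.0 kb after the Tbx2 start, chr11:85864503-85864576, plus strand: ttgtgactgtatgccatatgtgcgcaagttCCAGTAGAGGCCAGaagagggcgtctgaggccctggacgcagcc
86.1 kb after the Tbx4 start, chr11:85972520-85972593, minus strand: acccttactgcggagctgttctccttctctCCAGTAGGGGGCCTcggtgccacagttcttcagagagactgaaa

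The sites around Tbx3 and Tbx5 are shown as the matching set at the forelimb gene and its neighbour. They include 1 strong peak that the conservative list lacks, at 42410 bp after the Tbx3 start:
61 bp after the Tbx3 start, untranslated region, chr5:119670720-119670749, minus strand: caaagtcgCCTCTAGGTGGCTGatccagaa
20.7 kb after the Tbx3 start, chr5:119691292-119691365, minus strand: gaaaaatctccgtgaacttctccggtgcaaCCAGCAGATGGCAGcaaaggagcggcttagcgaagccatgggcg
42410 bp after the Tbx3 start, not in the conservative list, chr5:119713032-119713105, minus strand: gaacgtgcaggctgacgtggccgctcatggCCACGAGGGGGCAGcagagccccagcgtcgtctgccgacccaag
91.4 kb before the Tbx5 start, chr5:119741283-119741356, plus strand: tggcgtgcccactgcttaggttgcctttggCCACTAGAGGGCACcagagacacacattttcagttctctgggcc
54.6 kb before the Tbx5 start, chr5:119778003-119778076, plus strand: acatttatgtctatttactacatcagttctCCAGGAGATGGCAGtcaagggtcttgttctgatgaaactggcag

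The sites next to the remaining genes are shown because most are the nearest motif-bearing summits on each side of the gene bodies, with the farther upstream site of Pitx1 and exact matches to the consensus at Lmx1b:
Pitx1, downstream flank, chr13:55728092-55728165, minus strand: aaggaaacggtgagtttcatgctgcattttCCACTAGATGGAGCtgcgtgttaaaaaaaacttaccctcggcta
34.0 kb before the Pitx1 start, chr13:55870157-55870230, plus strand: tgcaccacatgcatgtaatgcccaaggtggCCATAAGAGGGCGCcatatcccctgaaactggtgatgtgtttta
2.78 kb before the Lmx1b start, chr2:33643249-33643322, minus strand: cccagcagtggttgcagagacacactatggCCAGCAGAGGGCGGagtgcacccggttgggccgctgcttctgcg
Lmx1b, downstream flank, chr2:33559914-33559987, plus strand: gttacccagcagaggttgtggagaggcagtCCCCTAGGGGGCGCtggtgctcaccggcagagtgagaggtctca
153 kb after the Lmx1b start, chr2:33487005-33487078, plus strand: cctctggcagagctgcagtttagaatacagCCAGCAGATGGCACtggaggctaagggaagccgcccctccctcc
96.4 kb before the Lmx1b start, chr2:33736834-33736907, minus strand: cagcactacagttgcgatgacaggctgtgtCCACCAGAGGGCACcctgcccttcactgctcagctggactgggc
Meis1, downstream flank, chr11:18877610-18877683, plus strand: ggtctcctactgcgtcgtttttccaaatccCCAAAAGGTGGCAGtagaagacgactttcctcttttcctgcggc
Meis1, upstream flank, chr11:19024616-19024689, minus strand: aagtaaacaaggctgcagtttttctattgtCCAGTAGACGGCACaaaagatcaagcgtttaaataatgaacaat
Meis2, downstream flank, chr2:115855929-115856002, plus strand: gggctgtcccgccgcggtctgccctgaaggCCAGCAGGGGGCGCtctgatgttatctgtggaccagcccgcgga
Meis2, upstream flank, chr2:116071615-116071688, minus strand: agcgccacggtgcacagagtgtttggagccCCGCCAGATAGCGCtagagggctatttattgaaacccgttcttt

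The number of CTCF summits differed widely between the windows. Lmx1b had 15, Tbx4 had 11, Tbx2 had 10, Tbx3 had 8, Meis2 had 5, Pitx1 and Meis1 had 4 each, Tbx5 had 3 and Shox2 had none. Since the windows differ in length, the counts were also taken per 100 kb, with an exact 95% Poisson interval. Over all protein-coding genes the median in the conservative list was 2.90 per 100 kb, with quartiles of 1.42 and 4.63. The 9 limb genes had a median of 1.89 in the conservative list (3.32 in the combined list, 3.32 for pool E and 1.89 for pool F). The median over all genes was not taken in the other lists, so their values cannot be set against 2.90. In the conservative list the 9 fell on both sides of the range between the quartiles: 3 lay above the upper quartile and 4 below the lower one. No neighbours in the order of densities differed beyond their intervals. The only intervals that did not meet were those of Shox2 (0 to 1.76) with Lmx1b (3.0 to 8.85), Tbx4 (2.39 to 8.57) and Tbx2 (2.29 to 8.78), and those of Lmx1b with Meis2 (0.403 to 2.90).

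**Figure D1:**
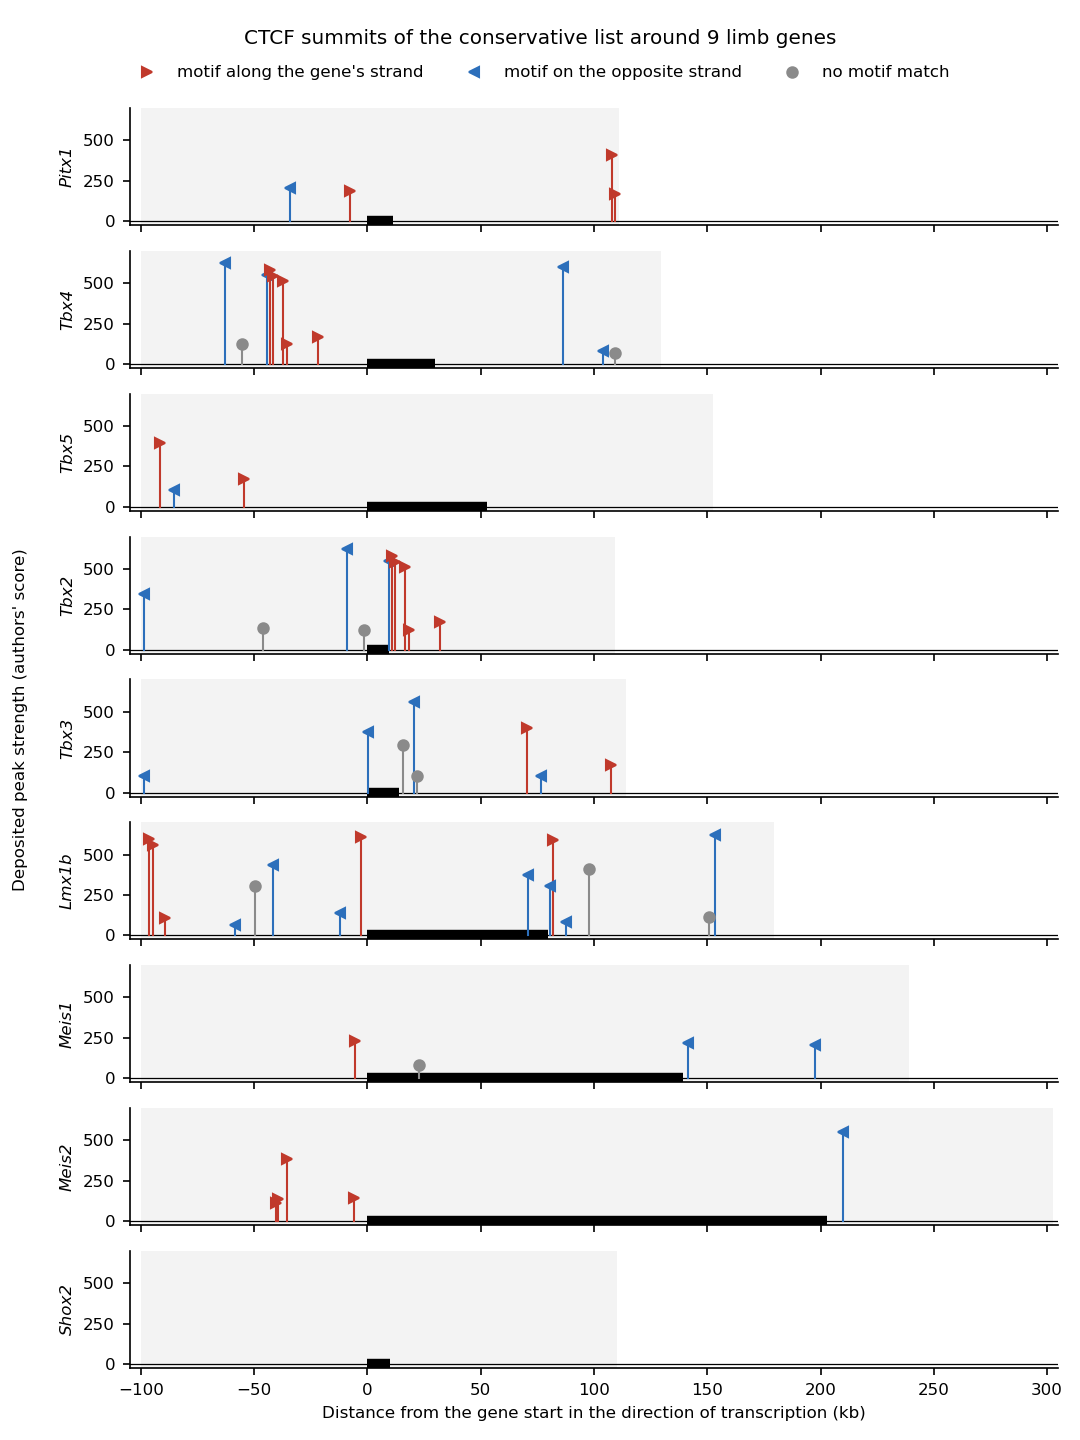
CTCF summits of the conservative list in the 9 windows (shaded), by distance from the gene start in kb along the direction of transcription; black bars are gene bodies, height is the authors' deposited strength, and triangles give the strand of the motif relative to the gene. Summits crowd between 10 and 20 kb after the Tbx2 start, the Tbx5 and Shox2 bodies and their downstream sides are empty, and Lmx1b has strong summits on both sides.

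Pitx1, the homeodomain factor that directs hindlimb identity, lies on chromosome 13 at 55825051 to 55836192 on the minus strand. Its 4 summits gave 1.89 per 100 kb (0.516 to 4.85), higher than 32.7% of protein-coding genes. The same window held 7 summits in the combined list, 7 in that of pool E and 4 in that of pool F. None lay in the Pitx1 body. The nearest to the start lay 7758 bp upstream, in an intron of the predicted transcript Gm47071, with a strength of 188.0. A second upstream summit lay at 34.0 kb (202.9), also in an intron of Gm47071. The other 2 lay at the far downstream edge, within 1 kb of the start of Pcbd2, a dimerization cofactor of HNF1: 1 of 411.8, the strongest in the window, and 1 of 165.5. The Pitx1 start thus sat in a stretch of 115.8 kb without a conservative summit, longer than for 70.9% of genes, which also held the whole of Catsper3, a sperm calcium channel subunit. The combined and pool E lists did hold summits inside this stretch. The closest of these to the start lay 11840 bp after it in the combined list (62.93) and 11839 bp after it in the pool E list (39.18). Over the whole Pitx1 window, the ranked list held 12 further candidates below the threshold. The strongest of these candidates had a strength of 66.82 and lay 26954 bp after the start. The combined list held it too, and the pool E list had a summit at 26960 bp. Another candidate, of 28.89, lay in the gene body, 3403 bp after the start.

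Tbx4, the T-box factor of hindlimb outgrowth, lies on chromosome 11 at 85886422 to 85916097 on the plus strand. Its 11 summits gave 4.79 per 100 kb (2.39 to 8.57), higher than 76.7% of genes, while the combined list gave 12, pool E alone 12 and pool F alone 9. Of the 11 conservative summits, 8 also lay in the window of Tbx2. With each summit counted only for the nearer gene, a choice made after the data were seen, Tbx4 kept 1.74 per 100 kb (0.475 to 4.46). That value was still divided by the full length of the Tbx4 window, including the part nearer to Tbx2. The nearest summit lay 21874 bp upstream of the Tbx4 start (169.2), and none lay in the body. On the downstream side the first summit came 86.1 kb after the start, with a strength of 597.3 and rank 761 of the list, and 2 weak ones followed (81.39 and 69.29). The stretch around the start without a summit was 108.0 kb, longer than for 69.3% of genes, and held no other whole protein-coding gene.

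Tbx5, the T-box factor that starts the forelimb, lies on chromosome 5 at 119832668 to 119885219 on the plus strand. Its 3 summits gave 1.19 per 100 kb (0.245 to 3.47), higher than 21.7% of genes. All 3 lay upstream: at 91.4 kb (397.9), 85.5 kb (103.6) and 54.6 kb (170.4), and all 3 were also in the window of Tbx3. The gene body and the 100 kb after it had none. The first summit downstream lay 203526 bp past the gene end, with a strength of 559.9 and rank 2300, in intergenic sequence whose nearest protein-coding start was that of Rbm19, an RNA-binding protein of ribosome assembly. The start of Tbx5 therefore lay in 310.7 kb without a conservative summit, longer than for 85.1% of genes. The pool E list had 6 summits in the window and the combined list 4. The closest of these to the start lay 17256 bp upstream in the combined list and 17249 bp upstream in the pool E list. It was in the ranked list too (50.03), below the threshold that both pools had to meet. The pool F list held the same number as the conservative list, 3.

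Read together, the hindlimb windows held 15 summits in 440.8 kb, or 3.40 per 100 kb, and the forelimb window held 3 in 252.6 kb, or 1.19 per 100 kb. The ratio was 2.86, with an exact conditional binomial interval of 0.810 to 15.4 that includes equal density. Pitx1 alone gave 1.59 (0.270 to 10.9) and Tbx4 alone 4.03 (1.07 to 22.5), and 8 of the 11 Tbx4 summits were those shared with the Tbx2 window. The same ratio was 2.72 in the combined list, 1.81 for pool E and 2.48 for pool F. With windows of 200 kb it was 2.15 (0.919 to 5.84), and with windows of 500 kb it was 1.29 (0.821 to 2.08). The tissue is a hindlimb muscle, and forelimb tissue was not analysed here, so the same windows could not be compared between limbs. With 2 genes against 1 there is no spread over genes, and the difference between hindlimb and forelimb genes could not be tested.

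**Figure D2:**
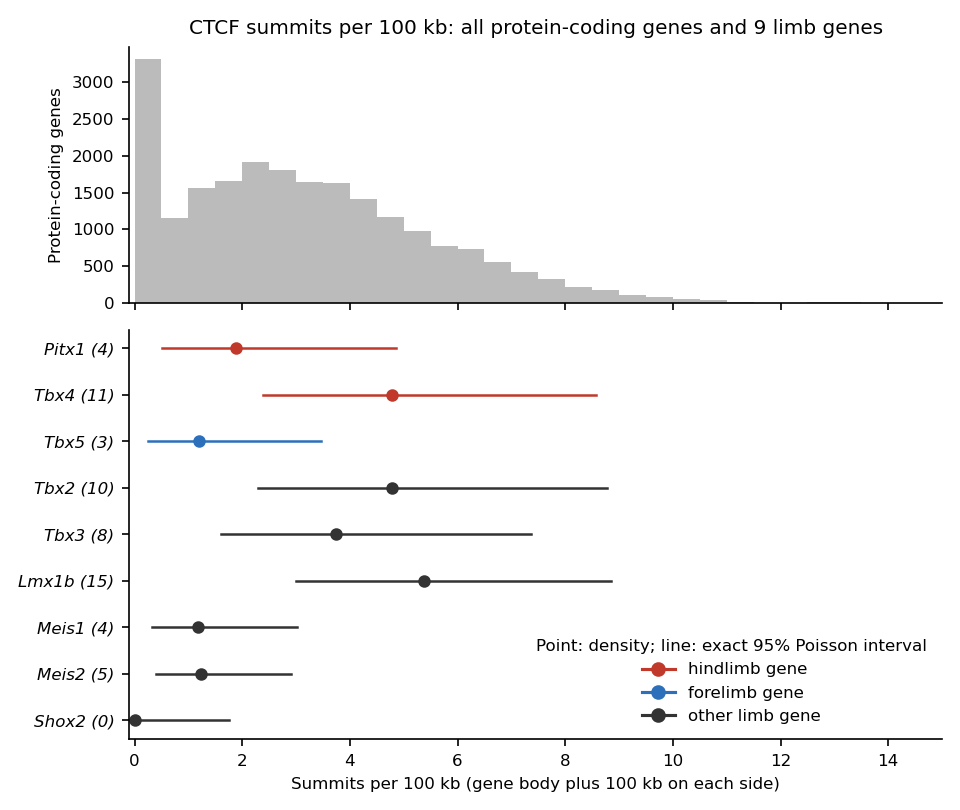
Top, the number of protein-coding genes by their conservative CTCF summits per 100 kb (bins of 0.5). Bottom, the 9 limb genes with the number of summits in parentheses, the density as a point and the exact 95% Poisson interval as a line; Tbx4 at 4.79 and Pitx1 at 1.89 stand above Tbx5 at 1.19 with overlapping intervals, and Shox2 is at 0.

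Tbx2 and Tbx4 form a linked pair of T-box genes on the same strand, as do Tbx3 and Tbx5, a layout that arose by duplication of an ancestral pair. The 2 intervals between the partners carried the same number of conservative summits, 6, but differed in length and strength. Between Tbx2 and Tbx4 there were 44473 bp, which gave 13.5 per 100 kb (4.95 to 29.4). Between Tbx3 and Tbx5 there were 147943 bp, which gave 4.06 per 100 kb (1.49 to 8.83). The intervals overlap. The counts depended on the list: between Tbx2 and Tbx4 there were 7 summits in the combined list, 6 for pool E and 6 for pool F, and between Tbx3 and Tbx5 there were 8, 9 and 6. The median strength was 528.1 in the first and 233.2 in the second, against 245.6 over the whole list.

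The Tbx2 to Tbx4 summits were packed close to the Tbx2 end. Strengths along the chromosome were 551.5, 580.6, 542.8, 513.4, 120.8 and 169.2, and the first 5 fitted in less than 10 kb. Of all conservative summits, 0.273% open a stretch of 10 kb with 5 or more. The first summit lay 248 bp past the Tbx2 end and carried a minus-strand motif, while the 5 that followed all carried plus-strand motifs and so pointed towards Tbx4. Upstream of Tbx2, the strongest summit near any of the 9 genes (623.4, rank 220) lay at 9.15 kb in an intron of Bcas3, a large neighbouring gene, with a minus-strand motif. The next minus-strand motif on the far side of Tbx4 was that of the 597.3 summit. Tbx2, a repressor of the T-box family, thus stood between the 623.4 and 551.5 summits, and Tbx4 between a run of plus-strand motifs and a strong minus-strand one. Tbx2 itself had 10 summits, 4.78 per 100 kb (2.29 to 8.78), with the nearest 1352 bp upstream of the start (122.7, no motif match) and none in the body.

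The Tbx3 to Tbx5 summits were spread over 91.5 kb, against 22.4 kb in the other pair. Their strengths were 296.0, 562.2, 102.2, 397.9, 103.6 and 170.4 in order from Tbx3. Motifs were mixed, with 2 on the plus strand, 2 on the minus strand and 2 summits without a match. Tbx3, a T-box repressor needed for posterior limb and mammary development, had a summit of 373.0 only 61 bp after its start, in the untranslated region of its first exon and within 1 kb of the start of the antisense transcript Tbx3os1. It had 8 summits in all, 3.74 per 100 kb (1.61 to 7.36).

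A strong peak was absent from the conservative list in the Tbx3 interval. It lay 42410 bp after the Tbx3 start, had a strength of 621.4 in the ranked list behind the conservative list (rank 547), 367.4 in pool E and 254.2 in pool F, and carried a minus-strand motif with 1 mismatch. Its irreproducible discovery rate (IDR), which measures how well the order of peaks agrees between the pools, was 0.089, above the threshold of 0.05. The combined list and the pool F list both held it, at ranks 130 and 1005, and the pool E list did not. Such losses were common at the top of the ranking. Of the 6468 ranked peaks with a strength of 500 or more, 442 missed the threshold (6.83%). Among these 6468, 1045 had a strength of 600 or more, and 374 of those missed it (35.8%). The peak was singled out after its values were seen, and why it missed the threshold was not tested.

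**Figure D3:**
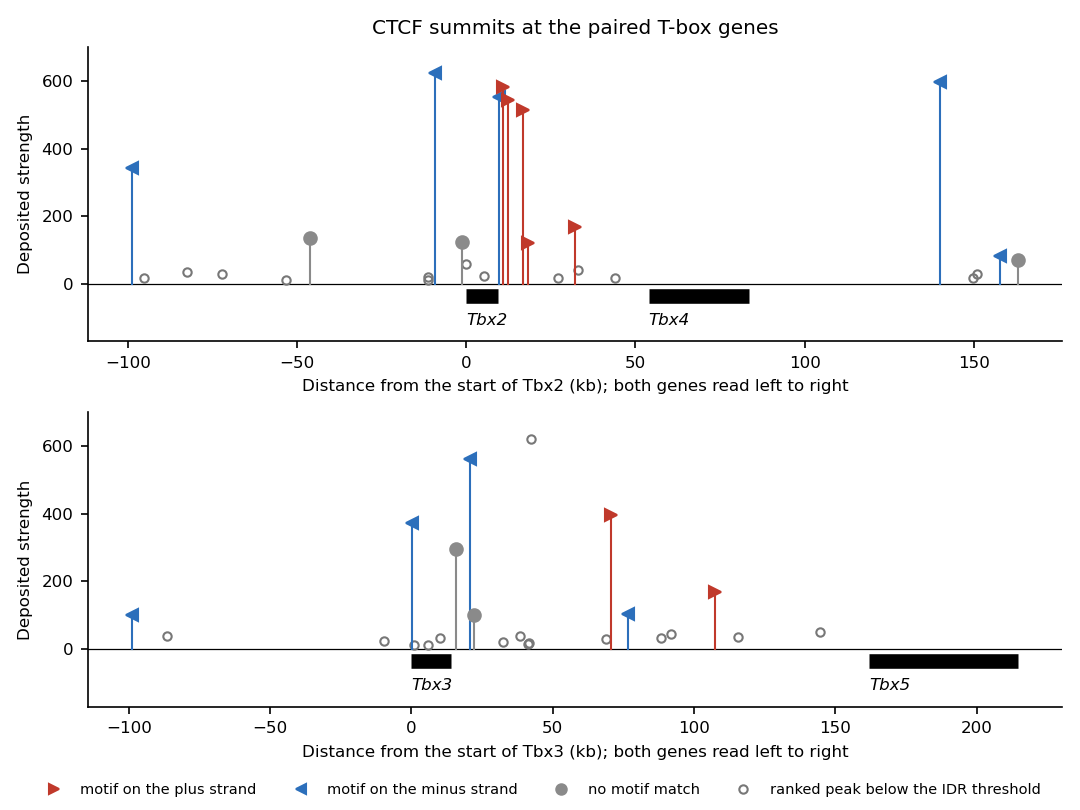
Deposited strength of CTCF summits against distance in kb from the start of Tbx2 (top) and Tbx3 (bottom); triangles point along the motif strand, grey dots have no motif match, open circles are ranked peaks below the IDR threshold and black bars are gene bodies. Strong summits cluster just after Tbx2 and all 5 plus-strand motifs there face Tbx4, while the open circle at 621.4 marks the strong peak missing from the conservative list after Tbx3.

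Lmx1b, the LIM homeodomain factor of the dorsal limb, lies on chromosome 2 at 33560965 to 33640511 on the minus strand and had the densest window. Its 15 summits gave 5.37 per 100 kb (3.0 to 8.85), higher than 82.4% of genes, and 10 of them were stronger than the list median. The other lists gave 16 (combined), 17 (pool E) and 12 (pool F). The strongest was 621.5 (rank 240), 153 kb downstream of the start. The pool F list held that summit too, and the combined and pool E lists did not. The summit nearest to the start, 2781 bp upstream in an exon of the noncoding gene C130021I20Rik, had a strength of 606.1 and rank 527. At the upstream edge, 2 strong summits (562.6 and 594.7) lay in an intron of Mvb12b, a subunit of the ESCRT-I sorting complex. Within the body 1 summit was found, in an intron (371.0). Exact matches to the consensus were frequent here: 7 of the 15 summits had one, against 12.2% of all conservative summits and 3 of the other 34 summits of the limb genes.

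Meis1 and Meis2, the TALE homeodomain factors of the proximal limb, had long bodies and few sites. Meis1 lies on chromosome 11 at 18879817 to 19018985 and Meis2 on chromosome 2 at 115863064 to 116065839, both on the minus strand. Meis1 had 4 summits, 1.18 per 100 kb (0.321 to 3.02), with strengths of 232.7, 84.11, 221.2 and 205.9 from upstream to downstream. Meis2 had 5, 1.24 per 100 kb (0.403 to 2.90), with strengths of 109.7, 138.9, 384.0, 140.2 and 550.3. Both densities were close to that of Tbx5 and lay below the lower quartile of all genes. In the conservative list the layout was alike: the nearest summit lay 5658 bp upstream of the Meis1 start and 5825 bp upstream of the Meis2 start. The first one past the gene end lay at 2182 bp for Meis1 and 7092 bp for Meis2. The pool E list had a further summit 1503 bp upstream of the Meis1 start (34.55) and lacked the 550.3 summit past the Meis2 end. The other lists gave 4 (combined), 5 (pool E) and 4 (pool F) for Meis1, and 5, 4 and 5 for Meis2.

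The 202776 bp body of Meis2 held no conservative summit, and the 139169 bp body of Meis1 held 1, the weakest of its window. Of the 2489 protein-coding genes of 100 kb or longer, 9.24% had none in the body. Over all protein-coding genes, most of them short, 54.2% had none, and 6 of the 9 limb genes had none: Pitx1, Tbx4, Tbx5, Tbx2, Meis2 and Shox2. In the ranked list, the Meis2 body had 2 candidates below the threshold, of 18.78 and 21.17.

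Shox2, the homeodomain factor of the proximal limb skeleton, lies on chromosome 3 at 66971727 to 66981771 on the minus strand. None of the 4 thresholded lists had a summit in its window. A count of 0 allows a density of up to 1.43 per 100 kb by the rule of 3 counts, a one-sided limit, and up to 1.76 by the two-sided Poisson interval given above. Of protein-coding genes, 90.0% had a conservative summit in their window, as had the other 8 limb genes. The nearest summits lay 285902 bp upstream of the start, in an intron of Rsrc1 (168.9), and 401213 bp past the gene end (136.7), both weaker than the list median. The stretch between them, 697.2 kb, was longer than for 90.6% of genes. The ranked list held 2 candidates in the window, of 23.73 inside the gene and 24.40 at 83526 bp after the start, both with an IDR of 0.61 and without a motif match. Of the bases in the Shox2 window 44.2% were soft-masked repeats, the highest of the 9, and none were assembly gaps. GC content was 39.3% there, 41.1% at Meis1, 41.3% at Meis2 and between 47.7% and 49.9% at the other 6 genes. The windows held between 1 and 3 protein-coding starts each, below the median of 5 over all genes. The part of base composition and of gene density in the summit counts was not tested.

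CTCF close to the start was found at a minority of these genes. A summit within 5000 bp of the start was present at 3 of 9, namely Tbx2, Tbx3 and Lmx1b, against 37.4% of all protein-coding genes. At 1000 bp it was 1 of 9, Tbx3, against 20.6%, and at 20000 bp 6 of 9 against 65.9%. These shares were near the background. The lists of other genes gave 25 of 51 for other limb patterning genes (49%, Wilson interval 35.9 to 62.3) and 5 of 13 for other T-box genes (38.5%, 17.7 to 64.5). Among the former the strongest summit near a start belonged to Cyp26b1 (608.9), which degrades retinoic acid, then Wnt5a (540.0) and Fgf8 (537.1), signals of limb outgrowth. Fgf10, Ptch1 and Gli3 had none within 5000 bp, with the nearest at 72756, 122996 and 93494 bp. Among other T-box genes, Tbx6 had the strongest (559.0), then Eomes (185.5) and Tbx1 (139.1), and Tbx15, Tbx19 and Tbx20 had none.

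The nearest motif-bearing summits on each side of the gene body faced each other at 6 of the 9 genes: Tbx4, Tbx5, Lmx1b, Meis1, Meis2 and Shox2. Over all protein-coding genes with such a pair, 28.9% were convergent in this way, 25.0% divergent and 46.1% tandem, with both motifs on 1 strand. Pitx1, Tbx2 and Tbx3 were tandem and none was divergent. Of the 9 pairs, 7 were 100 kb or more apart, and over all genes with pairs that far apart the shares were 31.0% convergent, 23.5% divergent and 45.5% tandem. The hindlimb gene Tbx4 and the forelimb gene Tbx5 were both framed by convergent motifs, with 108.0 kb and 310.7 kb between the summits, and Pitx1 by 2 minus-strand motifs 115.8 kb apart. Among other limb patterning genes, 28 of 51 were convergent, 8 divergent and 15 tandem. Other T-box genes differed, with 2 of 13 convergent, 5 divergent and 6 tandem. Both lists were chosen with results of these data known.

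The framing depended on the list, on the mismatch limit and on the strength of the summits used. In the pool E list Tbx4, Tbx5 and Shox2 became tandem and Pitx1 convergent, which left 4 convergent genes, and in the pool F list the orientation of all 9 was as in the conservative list. With at most 1 mismatch Tbx4 became tandem: the match at its downstream flank, the strong 597.3 summit, has 2 mismatches. Among the strongest 50% of the conservative list Tbx3 became convergent, which gave 7. Lmx1b, Meis1 and Meis2 were convergent and Tbx2 tandem in each of these alternatives. Whether any of these pairs forms a loop was not measured.

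**Figure D4:**
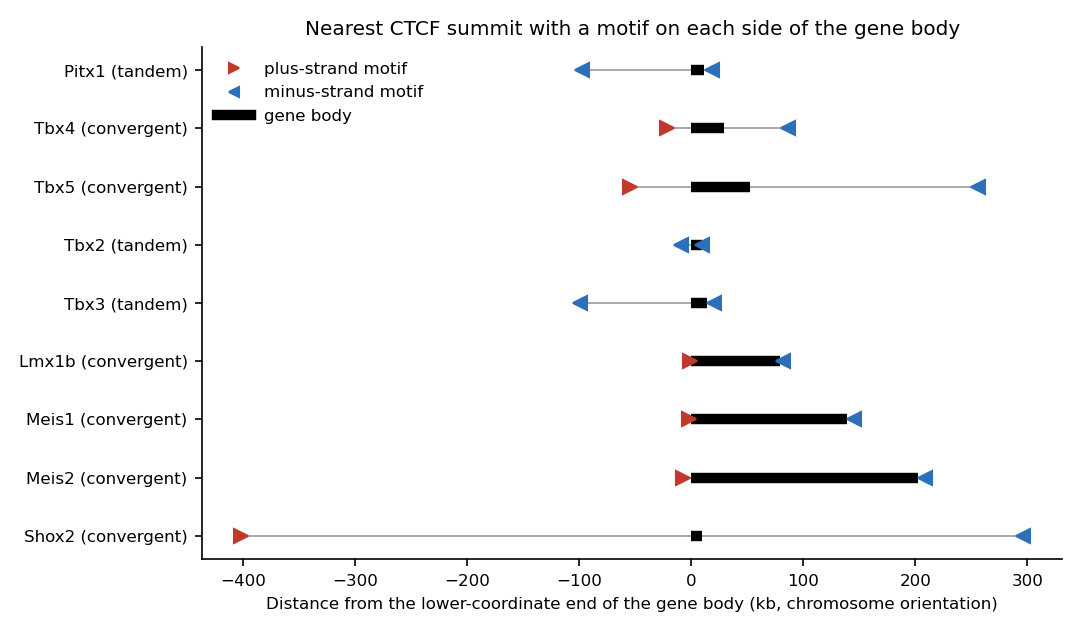
The nearest conservative summit with a CTCF motif on each side of each gene body (black bar), by distance in kb from the lower-coordinate end of the gene; triangles point along the motif strand. The pairs face each other at 6 of 9 genes, from 83.35 kb apart at Lmx1b to 697.2 kb at Shox2.

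Some of the sites lay in repeats: 9 of the 49 summits were in soft-masked sequence, against 19.7% of the conservative list. Of the 40 motif matches near the limb genes, 10 were wholly in soft-masked sequence (25.0%, against 21.7% of the 32727 matches in the conservative list). Of these, 6 began with the same 12 letters, CCAGAAGAGGGC, read at the start of the motif match on either strand. That start was found in 14% of all matches of the conservative list, and 99.7% of those were soft-masked. The soft-masked match at the summit closest to the Tbx4 start (169.2) holds the same 12 letters too. They begin inside that match and not at its start, so it is not among the 6. The B2 family of short interspersed elements in rodents is known to carry a CTCF motif, but the masking of the reference names no family, and the family of these copies was not tested. The 6 sites are shown because they share this start:
Pitx1, next to the Pcbd2 start, chr13:55726799-55726872, minus strand: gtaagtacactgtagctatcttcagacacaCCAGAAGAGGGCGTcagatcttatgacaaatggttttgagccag
7.76 kb before the Pitx1 start, chr13:55843881-55843954, minus strand: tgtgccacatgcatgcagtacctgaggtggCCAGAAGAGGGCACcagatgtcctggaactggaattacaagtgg
98.8 kb before the Tbx3 start, chr5:119571819-119571892, minus strand: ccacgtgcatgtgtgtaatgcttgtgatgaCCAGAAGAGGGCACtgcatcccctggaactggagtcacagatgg
85.5 kb before the Tbx5 start, chr5:119747162-119747235, minus strand: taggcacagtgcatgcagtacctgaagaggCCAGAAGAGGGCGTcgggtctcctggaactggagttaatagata
87.7 kb after the Lmx1b start, chr2:33552835-33552908, plus strand: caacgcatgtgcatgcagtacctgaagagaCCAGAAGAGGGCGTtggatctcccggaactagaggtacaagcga
35.6 kb before the Meis2 start, chr2:116101396-116101469, minus strand: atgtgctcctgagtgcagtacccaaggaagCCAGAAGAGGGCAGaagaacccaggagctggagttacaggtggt

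These included the summit closest to Pitx1, 1 of the 3 summits of Tbx5 and the motif that frames Tbx3 on its upstream side. Their strengths were 165.5, 188.0, 101.3, 103.6, 83.37 and 384.0. The median was 134.6, against 372.0 for the other 34 matches, which include the one closest to the Tbx4 start. Over the whole list the same start went with a median strength of 129.0 and other matches with 327.0, so the difference was not particular to the limb genes.

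The 49 summits were also described as a set beside the whole list. A motif match was present at 40 (81.6%, Wilson interval 68.6 to 90.0), against 77.6%, and an exact match at 10 (20.4%), against 12.2%. Of the 49, 24 were above the median strength of the list. Their strengths ran from 66.04 to 623.4. By position, 31 were intergenic (63.3%, against 40.3% of the list), 15 in introns (30.6%, against 48.0%), 2 in noncoding exons (4.08%, against 3.92%) and 1 in an untranslated region (2.04%, against 5.12%). None was in a coding exon, where 2.71% of the list lay. Of 108 ranked candidates in the windows, 49 met the IDR threshold (45.4%, 36.3 to 54.8), against 41.1% of all ranked peaks.

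The pools were compared through the strengths that the ranked list gives for its 2 inputs. The first input was taken as pool E and the second as pool F, since 77.15% and 63.32% of their strengths were found in the ranked lists of those pools. All 49 summits had the higher deposited strength in pool E. At the 623.4 summit upstream of Tbx2 the values were 361.2 and 262.9, at the Tbx3 start 240.4 and 134.3, at the summit closest to Pitx1 127.1 and 63.49, and at the summit closest to Tbx5 132.2 and 42.57. The median log2 ratio of pool E to pool F was 1.00 (0.38 to 1.81, SD 0.42 over summits), against 1.03 (SD 0.39) for the whole list. Higher values in pool E were therefore not particular to the limb genes. In the whole list the lowest ratio was 0.13 at strengths of 500 or more, -0.26 between 200 and 500 and -3.40 under 200.

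The ratio moved with strength. It had a median of 0.49 for the 13 summits of 500 or more, 0.95 for the 15 between 200 and 500, and 1.37 for the 21 weaker ones, and the whole list gave 0.53, 0.92 and 1.30. The smaller ratio in the Tbx4 window (median 0.64) than at the Tbx5 sites (median 1.59) therefore came with stronger summits, and a difference between the pools at these genes was not tested apart from strength. A partner with at least 50% reciprocal overlap was found for 40 of the 49 among the pool E peaks (81.6%, against 87.8%) and for 34 among the pool F peaks (69.4%, against 66.2%).

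**Figure D5:**
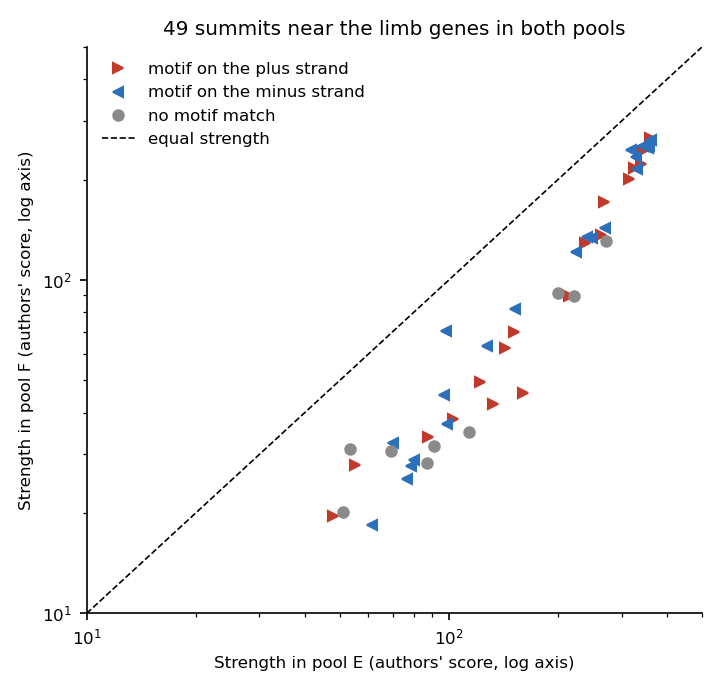
Strength of the 49 summits in pool E (horizontal) and pool F (vertical), both the authors' score on log axes, marked by motif strand; the dashed line is equal strength. All 49 lie below the line, and the strong summits lie nearer to it than the weak ones.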

How the data were processed

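CTCF ChIP-seq of gastrocnemius was deposited as narrowPeak lists on mm10. The authors, per the labels' notes, merged the technical replicates of a pool into 1 alignment, called peaks per pool and for both pools against a shared control alignment, and thresholded them by IDR. The aligner and peak caller are not given in the sources used here. Peak strength is a score deposited by the authors without a stated scale, and the IDR value is deposited by the authors as −log10. Read depth is not known.

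Summits (peak start plus offset, counted from 1) were assigned to windows of 100 kb around GENCODE M21 genes with python 3.11.15, pandas 2.3.3 and pysam 0.24.0. Ratios and shares have exact or Wilson 95% intervals, and for a count of 0 an upper limit of 3 summits was also given. The motif scan was tested on simulated data. All 9 members are described. In each window the strongest summit, the summit nearest to the start and the flanking motif-bearing summits are named. From each other list the 3 genes with the strongest summit near the start, and the first 3 without one, are named. The members and lists were chosen with earlier results of these data known. Other peak lists, windows, mismatch limits and overlaps were tried.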

Additional observations from a re-analysis of the deposited data

How the results depend on the processing

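No paired analysis was possible because the deposited lists merge the technical replicates, and the 2 pools are not compared under different conditions. Read depth is unknown and limits what can be said of weak sites. The median density of 1.89 per 100 kb became 3.32 in the combined list, 3.32 in the pool E list, 7.58 with all ranked peaks and 0.497 with the strongest 50% of the list. The ratio of hindlimb to forelimb density was above 1 in each alternative that gave a value, but these alternatives share summits. It ran from 1.29 with windows of 500 kb to 4.58 (0.614 to 203) with each summit counted for the nearest gene. That count was divided by the full window lengths. With the strongest 50% of the list the ratio was 4.01 (0.515 to 181). The lower bound of the ratio's interval passed 1 only with all ranked peaks (2.58, 1.18 to 6.42) and with Tbx4 alone. Windows of 50 kb gave no ratio, since Tbx5 had 0 summits there. Of the 8 genes with a summit, 6 kept their strongest one to within 100 bp in the combined list. In the pool E list 6 did, and in the pool F list 7. Members with a summit near the start went from 3 at 5000 bp to 1 at 1000 bp and 6 at 20000 bp, other limb genes from 25 to 8 and 38, and other T-box genes from 5 to 2 and 10. The motif share of 81.6% became 53.1% with 1 mismatch and 98.0% with 3. Partners in the pool E list went from 81.6% to 91.8% at an overlap of 1 bp and 73.5% at a reciprocal 80%. Those in the pool F list went from 69.4% to 85.7% at 1 bp and 12.2% at a reciprocal 80%. Why the 2 pool lists moved by different amounts was not tested. Of the alternatives for the density of single genes, 100 stayed within the counting interval and 8 moved, in the counts of Pitx1, Tbx4, Tbx2 and Tbx3 with all ranked peaks, Tbx5 at 50 kb, Pitx1 and Meis1 with the strongest 50%, and Tbx4 with the nearest-gene count, which was added after the data were seen, as were the ratios for single hindlimb genes.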
